A study of Arabidopsis thaliana with 4 samples.

Results

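Class III peroxidases are heme enzymes that plant cells secrete into the wall and the apoplast. They use hydrogen peroxide to oxidise monolignols and wall proteins, which stiffens the wall, and they can also make hydroxyl radicals or hydrogen peroxide, which loosen the wall or feed the oxidative burst of defence. In Arabidopsis thaliana the family is large, many of its genes lie side by side as tandem copies, and a large share of the members is known mainly from roots.

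The 59 loci examined here are a list of secreted class III peroxidases of cell wall and root, which does not hold the whole family; 14 further members are described at the end. In the platform annotation, 43 of the 59 had a probe set of their own, among 13286 loci so covered on the array. A further 7 were paired only with a probe set that lists several genes, and 9 were not paired with a probe set (AT1G05240, AT1G05250, RCI3, PER4, AT3G32980, PRXCA, PRXCB, PA2 and RHS18). The 9 include PRXCA and PRXCB, peroxidases of the apoplastic oxidative burst, and RHS18, a root hair gene, so these could not be read. RefSeq gave a peroxidase name, as symbol or synonym, to 11 of the 59. Members go by their RefSeq symbol where there is one and otherwise by locus name, at times with another name in brackets.

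The seedlings, all Col-0, were harvested whole at 10 days after growth in long days at 23 °C on Murashige-Skoog salts. The 4 Affymetrix arrays held 2 samples of 35S:miR396, plants in which the cauliflower mosaic virus 35S promoter drives the microRNA miR396 in most tissues, and 2 samples of wild type. The labels number them 1 and 2 in 35S:miR396 and 1b and 2 in wild type. What the number marks is not stated, and wild type 1b is counted with number 1 here. Nor do the labels say whether plants were pooled, how many transgenic lines were used, or whether samples of a genotype came from separate cultures. The p-values therefore cover only how far these arrays spread, and that spread may be technical. In whole seedlings, fewer cells of a type and less RNA per cell cannot be told apart.

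Array medians before scaling lay between 60.5 and 81.3, so each array was scaled to a common median of 71.1, and signals below are on this centred scale (arbitrary units). Signals of different probe sets are not comparable as transcript levels. Root and leaf tissue were read through few genes. A gene is called measured where the annotation used gives it a probe set of its own. In that annotation 8730 probe sets had no gene, so a gene not measured may still be on the array. PYK10, a beta-glucosidase of root ER bodies and the only measured one of 9 root markers, was between 1192 and 1406 on the 4 arrays. Of 14 leaf markers 2 were measured, the antenna proteins LHCB4.1 and LHCB4.2, whose summed wild-type signals were 23814 (1b) and 21916 (2), against 25237 (1) and 20149 (2) in 35S:miR396. Both measured root hair markers of 12, the expansins EXPA7 and EXPA18, stayed at or below 17.6 on every array and were not tested, and of 10 xylem markers 0 had a probe set of their own.

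Most of the family gave low signals in these seedlings. Of the 43 loci with their own probe set, 32 (74.4%) had a mean signal in the range of the lowest 30% of all probe sets, below 15.8, and were left out of the tests, against 30% of all 22746 probe sets. A low signal is no proof of absence, because detection calls were not used. A signal above the array median on all 4 arrays was found for 6 of the 43 (14.0%), against 46.3% of all probe sets. The other 5 of the 11 tested loci lay in between.

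**Figure D1:**
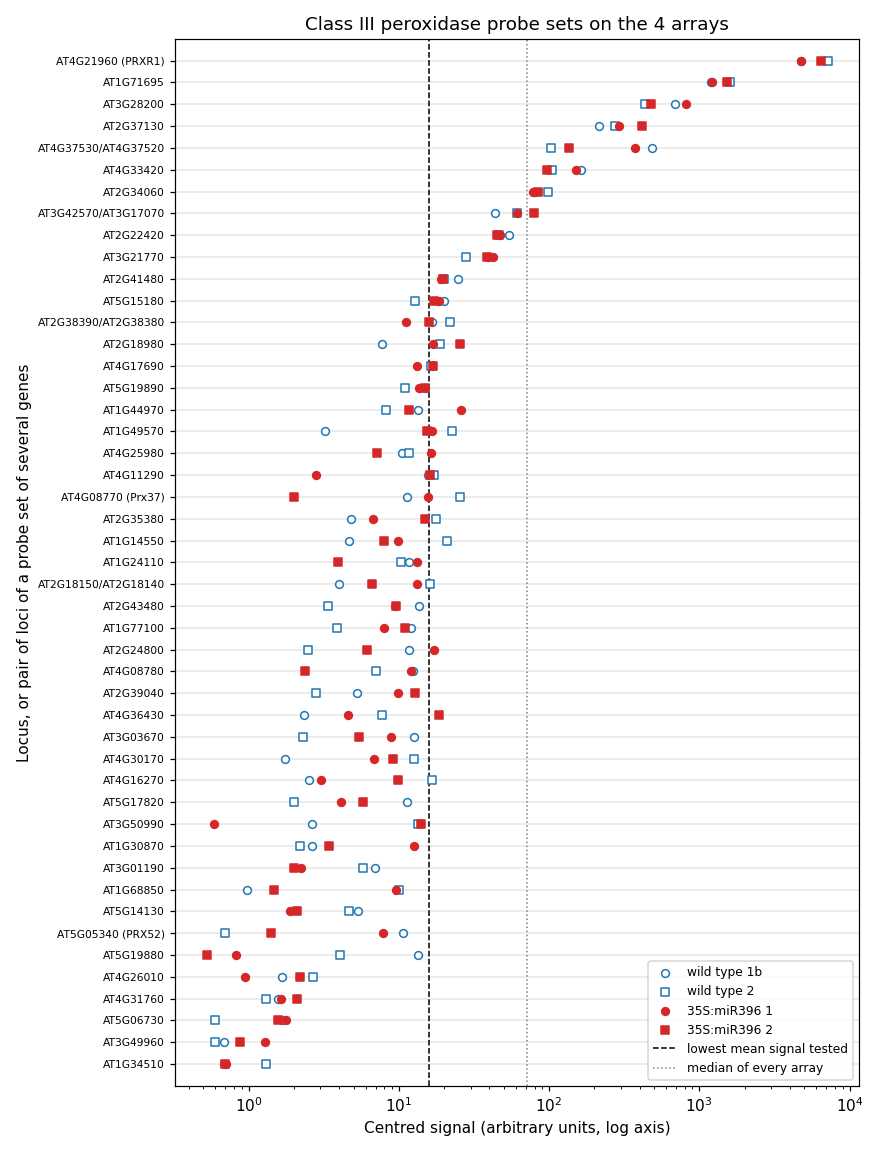
Centred signal (log axis, arbitrary units) of each of the 43 loci with their own probe set and of the 4 probe sets that list several genes, 1 point per array; the dashed line at 15.8 is the lowest mean signal tested and the dotted line at 71.1 the median of every array. A total of 32 loci have their mean left of the dashed line, and 6 loci and the probe set of AT4G37520 and AT4G37530 lie right of the dotted line on all 4 arrays.

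Peroxidases of root hairs and root elongation that could be read were in the low range. Of 8 such loci 6 were measured and 0 were tested. AT4G26010, linked to root hair growth, had wild-type signals of 1.66 and 2.69, against 0.940 and 2.19 in 35S:miR396. AT3G49960, known from root hairs, was at 0.683 and 0.598 against 1.29 and 0.874. These signals were among the lowest on the arrays, and 6 of the 43 loci (14.0%) belonged to the lowest 10% of probe sets by mean signal. AT4G11290, AT4G16270 and AT5G17820 are peroxidase genes that the transcription factor UPBEAT1 represses in the root tip. AT4G11290 had wild-type signals of 15.5 and 17.1, against 2.82 and 16.1 in 35S:miR396, so 35S:miR396 1 stood below the other arrays. AT4G16270 was at 2.54 and 16.5 against 3.06 and 9.88, and AT5G17820 at 11.3 and 1.99 against 4.11 and 5.77. The genotypes overlapped for all 3.

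Other low members included known wall and defence peroxidases. PRX52, which acts in stem lignification, had wild-type signals of 10.7 and 0.698, against 7.87 and 1.40 in 35S:miR396. AT4G36430, also linked to lignin, was at 2.34 and 7.68 against 4.58 and 18.6. For both genes the genotypes overlapped. Prx37, which reduces growth when overexpressed, was at 11.3 and 25.5 against 15.7 and 2.01. AT3G50990 (PER36), which loosens the wall of seed coat cells for mucilage release, was at 2.64 and 13.4 against 0.587 and 14.0. All signals of AT3G50990 were below 15.8, and no difference is read from them. Of the 32 untested loci, 21 stayed below 15.8 on every array, 8 exceeded it on 1 array and 3 on more than 1 array. The largest of these signals was 26.1, for AT1G44970 on 35S:miR396 1, a peroxidase of anther and root endodermis walls. The genotypes overlapped for 25 of the 32 untested loci. In 4 (AT1G30870, AT2G39040, AT3G49960 and AT4G31760) both 35S:miR396 signals were the higher ones, as in 15.9% of the 6824 untested probe sets. In 3 (AT3G01190, AT5G14130 and AT5G19880) both were the lower ones, as in 15.6% of them. AT1G30870, known from root hairs, had wild-type signals of 2.64 and 2.19, against 12.7 and 3.41 with the transgene, and AT5G19880 13.4 and 4.09 against 0.822 and 0.525.

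The genotypes were compared to see how the peroxidases stood under overexpression of miR396. None of the 11 tested peroxidases passed, and the log2 differences lay between -0.20 and 0.79 with 5 above 0 and 6 below. In limma's test with Benjamini-Hochberg adjustment over all 15922 tested probe sets, 0 of 11 peroxidases and 0% of all probe sets were called at an adjusted p of 0.05. At an unadjusted p under 0.05 the counts were 0 of 11 and 103 of 15922 (0.647%). This fit holds no term for the replicate number, so shifts between the numbers count as spread within a genotype. With such a term 902 probe sets were under 0.05 unadjusted. At an adjusted p of 0.05 that fit called 18 of 15922 probe sets and 0 of 11 peroxidases. The median log2 difference was -0.03 over the 11 and -0.0035 over all tested probe sets, and the median absolute difference 0.15 and 0.11. All 11 intervals at 95% included 0. Over all tested probe sets the median half-width of the interval was 0.63. The intervals are not adjusted for the number of probe sets tested, so shifts larger than that could be missed too. The difference of 0.79, for AT2G18980, was not called.

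AT2G37130 was the only one of the 11 whose lower 35S:miR396 signal exceeded its higher wild-type signal, as 9.18% of all tested probe sets did. It belongs to the peroxidases studied in defence against fungi. It read 215 and 273 in wild type, against 294 and 418 with the transgene. The log2 difference was 0.53 with an interval from -0.12 to 1.19 (limma, adjusted p = 1), and within number 1 and number 2 it was 0.45 and 0.62. Without 35S:miR396 2 the difference was 0.28 and without wild type 1b it was 0.36, each also holding part of the shift between the numbers. With a term for the replicate number in the fit, its adjusted p was 0.196 (limma). AT2G41480 (PRX25), linked to lignin, was the only one of the 11 separated downward, as 10.7% of all tested probe sets were. Its signals of 24.7 and 19.9 against 19.0 and 19.7 differed little, with a log2 difference of -0.20 (interval -1.08 to 0.68). The shared probe set of AT2G38380 and AT2G38390 was separated downward too, with a difference of -0.52 (interval -1.61 to 0.56).

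For the brightest peroxidases the direction of the genotype difference was not settled. PRXR1 (AT4G21960) had a wild-type mean of 5969 ± 1747 (SD, n = 2), against 5599 ± 1192 in 35S:miR396, a log2 difference of -0.08 with an interval from -0.78 to 0.62. AT1G71695 was at 1405 ± 287 and 1375 ± 233, a difference of -0.03 with an interval from -0.60 to 0.55. AT3G28200 was at 559.7 ± 181 and 645 ± 237, a difference of 0.19 with an interval from -0.74 to 1.13. In all 3, the spread within a genotype exceeded the difference between genotypes. With single arrays left out, the difference of PRXR1 ranged from -0.38 to 0.23 and that of AT1G71695 from -0.24 to 0.18. For AT3G28200 it ranged from -0.19 (without 35S:miR396 1) to 0.58 (without 35S:miR396 2). Leaving out an array unbalances the replicate numbers, so such values also hold part of the shift between the numbers. Within number 1 and number 2 the differences were 0.0068 and -0.16 for PRXR1 and 0.0093 and -0.0623 for AT1G71695. For AT3G28200 they were 0.24 and 0.15. AT2G18980, a peroxidase linked to seed germination, had a difference of 0.79 with an interval from -0.72 to 2.30. This difference was 0.15 without wild type 1b and 1.43 without wild type 2. Within number 1 and number 2 it was 1.13 and 0.45. The gene lay close to the lower limit of the test, at 7.71 and 18.7 in wild type against 16.9 and 25.5.

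**Figure D2:**
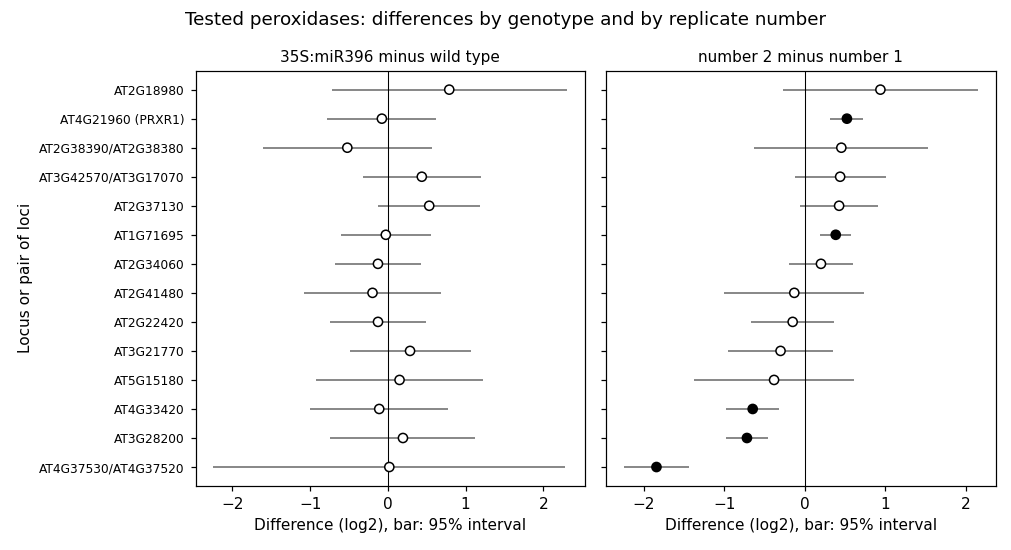
Log2 differences of the 11 tested loci and of 3 probe sets that list several genes, by genotype (left) and by replicate number (right), with 95% intervals from limma; filled points passed an adjusted p of 0.05. On the left 0 points are filled, and on the right 5 are.

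Between the replicate numbers, peroxidases moved in both directions. PRXR1 and AT1G71695 were higher on the arrays of number 2, and AT3G28200 and AT4G33420 were lower. In limma's test of number 2 against number 1, 4 of 11 peroxidases passed an adjusted p of 0.05, where 18.9% of all 15922 tested probe sets passed. By direction, 2 of 11 rose against a background of 9.00% and 2 of 11 fell against 9.94%. Whether the peroxidases' shares differ from the background was not tested. With eBayes run without a trend on mean signal, 0 of the 4 passed, at adjusted p between 0.0518 and 0.107, and over all probe sets 1127 passed instead of 3016.

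PRXR1 was at 4734 (wild type 1b) and 4756 (35S:miR396 1) in number 1 and at 7204 (wild type 2) and 6441 (35S:miR396 2) in number 2. Both number 2 arrays stood above both number 1 arrays, and the arrays of number 1 were nearly equal. The log2 difference was 0.52 with an interval from 0.32 to 0.73 (limma, adjusted p = 0.00473), or 1.44-fold. AT1G71695 was at 1202 and 1210.2 in number 1 and at 1608 and 1539.6 in number 2. Its log2 difference was 0.38 with an interval from 0.19 to 0.58 (limma, adjusted p = 0.0159). Without wild type 2 the adjusted p was 0.0695, and on deposited signals the difference was 0.58.

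AT3G28200 was at 687 and 813 in number 1 and at 432 and 478 in number 2, in the order wild type, 35S:miR396. The groups did not overlap, and the log2 difference was -0.72 with an interval from -0.98 to -0.45 (limma, adjusted p = 0.00349). AT4G33420, a peroxidase tied to lignin of xylem vessels, was at 164 and 151 in number 1 and at 104 and 96.9 in number 2. Its log2 difference was -0.65 with an interval from -0.98 to -0.32 (limma, adjusted p = 0.0158). Without wild type 1b the adjusted p was 0.0575 and without 35S:miR396 2 it was 0.0571.

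Scaling bears on these directions. On deposited signals the median log2 difference over all tested probe sets was 0.16 between the numbers, against -0.04 after centring, and 1684 probe sets rose and 506 fell in number 2 instead of 1433 and 1583. The peroxidases called there were 3 higher and 0 lower: PRXR1, AT1G71695 and AT2G37130. AT3G28200 (-0.52, limma, adjusted p = 0.101) and AT4G33420 (-0.45, limma, adjusted p = 0.257) kept their sign without passing. Unlike the main fit, that fit set the variance wholly by the trend on mean signal. Its calls therefore differ from the main ones in more than the scaling. After quantile normalization 2 rose and 2 fell.

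Among the tested peroxidase probe sets, the largest shift between the numbers was that of the probe set that the annotation gives to AT4G37520 and AT4G37530 together. These neighbouring genes cannot be told apart by it, and the signal is assigned to neither. It was at 482 (wild type 1b) and 373 (35S:miR396 1) in number 1 and at 103 (wild type 2) and 136 (35S:miR396 2) in number 2. The log2 difference was -1.84 with an interval from -2.24 to -1.44 (limma, adjusted p = 2.86e-04), which is 3.58-fold lower in number 2. It passed in every alternative that kept all 4 arrays, with adjusted p of at most 0.0274 (limma, eBayes without a trend). The lowest, 1.62e-10 on deposited signals, came from a fit with the variance set wholly by the trend on mean signal. That value overstates what 4 arrays can show. With single arrays left out the log2 difference was between -2.04 and -1.64. Between the genotypes its log2 difference was 0.02, with -0.37 within number 1 and 0.41 within number 2. Among the other 3 probe sets that list several genes, those with AT3G17070 (0.44) and with AT2G38380 and AT2G38390 (0.45) did not pass between the numbers, and that of AT2G18140 and AT2G18150 was below the tested range.

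The other 7 tested peroxidases did not pass between the numbers, with log2 differences from -0.38 to 0.94. Arrays of number 2 stood above those of number 1 for 4 of the 11 loci, against 27.0% of all tested probe sets, and below them for 5, against 34.1%. AT2G37130, at 215 and 294 in number 1 and 273 and 418 in number 2, overlapped and had a difference of 0.43 (limma, adjusted p = 0.211). With a term for the genotype it passed (limma, adjusted p = 0.0216). Its shifts between the numbers were 0.34 within wild type and 0.51 within 35S:miR396. The difference was 0.73 without wild type 2, 0.12 without 35S:miR396 2 and 0.20 without wild type 1b. With an array left out it also holds part of the genotype difference. The lignin-linked AT2G22420 was at 54.4 and 47.2 against 46.5 and 44.9, and AT2G34060 at 80.8 and 78.5 against 98.5 and 85.0. AT3G21770 was at 39.3 and 42.1 against 28.0 and 38.8, and AT5G15180 at 20.0 and 18.4 against 12.8 and 17.0. In these 4 genes, as in AT2G18980, the numbers did not overlap without passing the test.

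The shift between the numbers was read separately in each genotype, from arrays that the readings do not share. The median log2 difference of the 11 loci was -0.23 between the wild-type arrays, against 0.05 between those of 35S:miR396. The sign was the same in both genotypes for 10 of 11 loci, and for 71.8% of all tested probe sets. PRXR1 differed by 0.61 (wild type) and 0.44 (35S:miR396), AT1G71695 by 0.42 and 0.35, AT3G28200 by -0.67 and -0.77 and AT4G33420 by -0.65 and -0.64. These 4 are the loci that passed between the numbers, which itself requires like shifts in both genotypes, so nothing is read from their likeness. The probe set of AT4G37520 and AT4G37530 differed by -2.23 (wild type) and -1.45 (35S:miR396). For the genotype difference, the sign was the same in both numbers for 8 of 11 loci and for 49.8% of all tested probe sets.

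**Figure D3:**
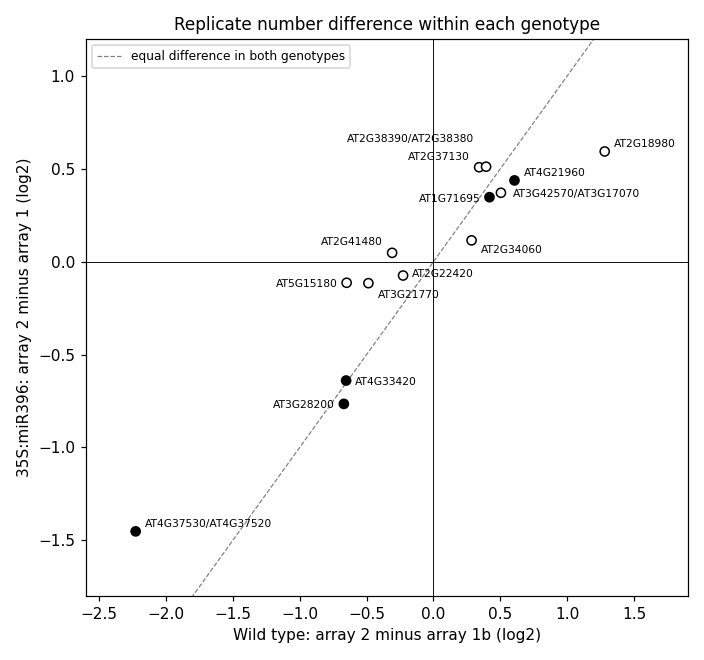
Log2 difference of array 2 minus array 1b in wild type (horizontal) against array 2 minus array 1 in 35S:miR396 (vertical) for the 11 tested loci and 3 probe sets that list several genes; filled points passed limma's test between the numbers and the dashed line marks equal differences. Of the 11 loci, 10 lie in the lower left or upper right quadrant, and AT2G41480 (-0.31 and 0.0476) does not; the filled points lie there by the way they were chosen.

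Genes of connected steps were read through few probe sets. UPBEAT1 (UPB1), the basic helix-loop-helix repressor of root peroxidase genes, was at 38.7 and 32.2 in number 1 and at 61.3 and 65.7 in number 2, in the order wild type, 35S:miR396. It rose with a log2 difference of 0.85 (interval 0.32 to 1.38, limma, adjusted p = 0.0362). Of all tested probe sets 9.00% rose. Between the genotypes the difference of UPB1 was -0.08. Of 15 genes of monolignol biosynthesis, which supplies the substrates of lignin peroxidases, only HCT was measured. It was at 619 and 706 in number 1 and 1037 and 1043 in number 2, and rose by 0.65 (adjusted p = 0.00266). Among the called peroxidases, PRXR1 and AT1G71695 rose likewise, while AT3G28200, AT4G33420 and the probe set of AT4G37520 and AT4G37530 fell.

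Extensins are wall glycoproteins that class III peroxidases crosslink. Of 12 genes for extensins and LRR-extensins 5 were tested, and in number 2 0 rose and 1 fell, where 9.00% of all tested probe sets rose and 9.94% fell. AT3G24480, an LRR-extensin (LRX4), was at 76.4 and 78.8 in number 1 and 52.2 and 42.1 in number 2, a difference of -0.73 (limma, adjusted p = 0.0429). Of 11 ascorbate peroxidases and catalases, which remove hydrogen peroxide inside the cell, 2 were tested and 1 rose, against the same background of 9.00%. That was SAPX, a stromal ascorbate peroxidase, with a difference of 0.50 (adjusted p = 0.0337), while the thylakoid enzyme TAPX had one of -0.09. The 3 measured of 10 NADPH oxidases, which supply superoxide in the apoplast, had signals of at most 10.8 and were not tested. Of 9 endodermis markers GSO1, a receptor kinase of Casparian strip formation, was the only one measured. It fell by 0.78 (limma, adjusted p = 0.0455), where 9.94% of all tested probe sets fell. Among the leaf markers LHCB4.2 fell by 0.39 (adjusted p = 0.0124) and LHCB4.1 had a difference of -0.09 (adjusted p = 0.545), and the root marker PYK10 had one of -0.11 (adjusted p = 0.477). The part of these in the peroxidase shifts was not tested. Alternatives to the fit are not given for single genes of these lists. Between the genotypes 0 genes of these lists passed.

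Of 14 further class III peroxidases, 12 were measured and 7 tested, and 0 passed in either comparison. AT5G51890, a peroxidase of xylem vessels, had wild-type signals of 318 and 367, against 159 and 247 in 35S:miR396, a log2 difference of -0.79 (limma, unadjusted p = 0.0339). Its adjusted p was 1. Of the 7, AT5G39580 (0.46) and AT5G64110 (0.87) were separated upward in 35S:miR396 and AT5G51890 and AT5G64120 (-0.44) downward, where 9.18% and 10.7% of all tested probe sets were. Between the numbers, AT5G58390 had a log2 difference of 0.73 (limma, adjusted p = 0.085) and AT5G64100 one of -1.29 (adjusted p = 0.122). The median log2 difference of the 7 was 0.25 by genotype and 0.34 by number, against -0.0035 and -0.04 over all tested probe sets. In each comparison 4 of the 7 were above 0 and 3 below, and a shift of the group was not tested.

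**Figure D4:**
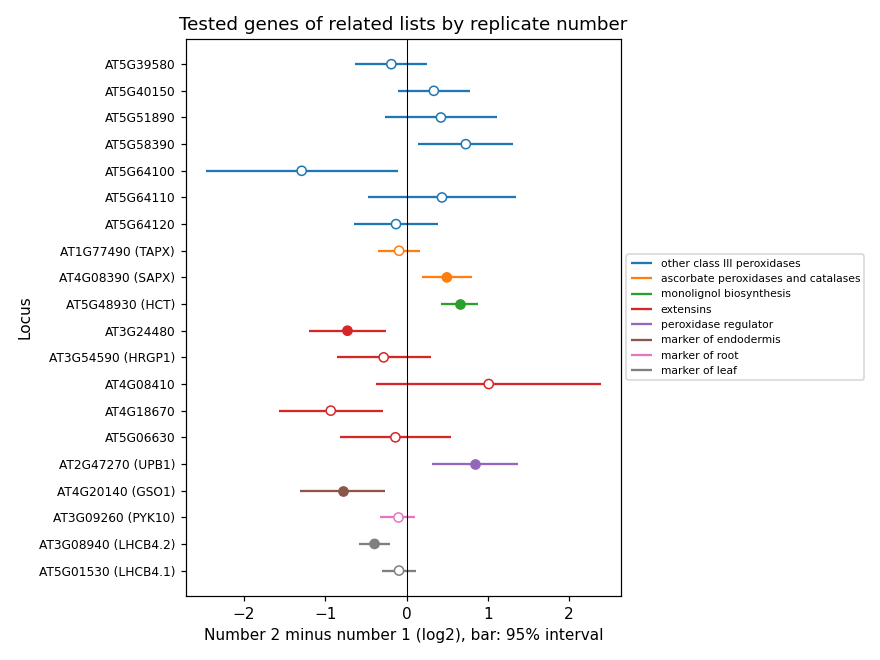
Log2 difference of number 2 minus number 1 with 95% intervals from limma for the tested genes of the related lists; filled points passed an adjusted p of 0.05. UPB1, HCT and SAPX lie right of 0 and AT3G24480, GSO1 and LHCB4.2 left of it, while the 7 further class III peroxidases are unfilled.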

How the data were processed

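The authors deposited linear intensity values, 1 per probe set and array. The submitters' processing notes name MAS5. Its version, scaling target and detection calls are not given in the sources used here. Of 22810 probe sets 64 controls were removed. In the platform annotation 13513 of the rest had 1 gene, 503 several and 8730 none, and RefSeq names (TAIR10.1) matched 13436 to loci.

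Each array was scaled to the common median, values under 0.1 (6 of them at or under 0 as deposited) were raised to 0.1, and signals were put on the log2 scale. Probe sets in the lowest 30% by their mean over the 4 arrays were not tested, leaving 15922. Genotypes, and replicate numbers, were each tested in limma 3.58.1 under R 4.3.3 (lmFit, eBayes with a trend, two-sided, Benjamini-Hochberg over all tested probe sets, threshold 0.05), without a block. Each member had a single probe set of its own. Every member may be named, and values per array are given for members past the threshold, the 6 highest and lowest by moderated t in each comparison and the brightest 6. Up to 3 genes of each other list are named, those with the largest moderated t, and 3 further class III peroxidases by their separation. The untested members given by array were chosen after their values were seen. The members and lists were chosen with earlier results of these data known. Alternatives are given in the closing section. The scripts were tested on simulated data. Tables and figures were made with Python 3.11.15, pandas 2.3.3, numpy 2.4.6 and matplotlib 3.10.9. The number of arrays limits the precision.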

Additional observations from a re-analysis of the deposited data

Results flagged for a closer look

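For 3 tested peroxidases the log2 difference of 35S:miR396 minus wild type had opposite signs in number 1 and number 2: 0.0093 and -0.0623 for AT1G71695, 0.0068 and -0.16 for AT4G21960, and -0.12 and 0.42 for AT5G15180. For AT2G41480 the difference of number 2 minus number 1 was -0.31 in wild type and 0.0476 in 35S:miR396. Each of these values compares 1 array with 1 array, and the differences between them were not tested.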

How the results depend on the processing

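Between the genotypes 0 peroxidases passed under every alternative run. Of all probe sets 0 passed except with the replicate block, where 18 did (5 higher, 13 lower) and still 0 peroxidases. That 18 hangs on the scaling: the replicate block gave 5 on deposited signals and 0 after quantile normalization, both run after the data were seen. The labels do not state that the number pairs the arrays, and with 2 pairs the data cannot settle it. Across 15922 probe sets the differences of array 2 minus array 1 in the 2 genotypes correlated at 0.627. The median of the tested peroxidases by genotype, -0.03, was -0.0653 on deposited signals, 0.12 without a filter, -0.004 with the probe sets of several genes counted (chosen after the data were seen), and 0.0146 to 0.21 with single arrays left out. By number, eBayes without a trend gave 1127 probe sets and 0 peroxidases in place of 3016 and 4. The other alternatives gave 3 to 5 peroxidases. The median by number, -0.13, was 0.0674 on deposited signals, 0.38 under the stricter filter on low signals (60%, 5 peroxidases tested) and -0.25 to 0.0573 with single arrays left out. With an array left out, the values mix the shifts by genotype and by number. A pseudocount of 2.4, robust fitting and an adjusted p of 0.1 gave the same count of 4. Averaging probe sets of a locus gave no other value, as each locus with a probe set of its own had 1. Signals near the lower limit of the test, as for AT2G18980, are imprecise on the log scale.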

Other observations

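Gene order in RefSeq set 16 of the 59 loci side by side in 8 pairs with no gene between them. Of these 16, 6 had a probe set of their own, against 37 of the 43 loci outside such pairs. Both pairs with a probe set for each neighbour gave low signals. Prx37 and its neighbour AT4G08780 were at most at 25.5 and 12.5, and AT5G19880 and AT5G19890 at most at 13.4 and 15.0. Of the 6 neighbours with a probe set of their own 0 were tested, and of all 43 loci with one 32 (74.4%) were not tested. The only tested probe sets for such neighbours were those that list several genes. Whether neighbours differ from the other members in signal was not tested.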
